A study of Mus musculus with 33 samples.

Results

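Ect2 is the guanine nucleotide exchange factor named in the title of this series, and it was followed here together with 7 genes of the central spindle and the midbody, namely Racgap1, Kif23, Prc1, Anln, Cit, Cep55 and Plk1. The 8 genes were taken by symbol from a table of 14862 gene rows, and all 8 were present. The table holds raw read counts of 33 single mouse heart cells. The cells came from dissociated ventricles of transgenic mice and were sorted by mAG-hGem, the Azami Green and geminin fusion of the FUCCI cell cycle reporters. The groups were 10 mAG-hGem positive and 11 mAG-hGem negative cells of embryonic day 14.5 (E14.5), and 6 positive and 6 negative cells of postnatal day 5 (P5). All groups carry the reporter, no other allele or agent is named for any of them, and the strain and the promoter of the reporter are not given in the sources used here. The RNA of each cell was amplified as antisense RNA. The labels name no animal, so each group counts as 1 sample and no test between groups was made.

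Geminin builds up from S phase to mitosis, so a green cell is one that has entered the cycle. Cytokinesis begins when Plk1, a mitotic kinase, acts on centralspindlin, the complex of the kinesin Kif23 and the GTPase-activating protein Racgap1, which then binds Ect2. Ect2 loads RhoA with GTP at the cell equator, and RhoA drives the contractile ring, which anillin (Anln) scaffolds. Prc1 bundles the microtubules of the central spindle, citron kinase (Cit) stabilises the midbody, and Cep55 recruits the ESCRT proteins that cut the last bridge. Heart muscle cells of the mouse divide before birth and soon after birth stop doing so, many of them ending with 2 nuclei, and the comparison between the ages in green cells bears on which cytokinesis genes are still transcribed then.

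Genes of G2 and mitosis often carry the cell cycle homology region (CHR), a promoter element read by the DREAM and MuvB complexes, and the members' own copies are shown because they are a shared feature outside the counts. RefSeq promoter windows of assembly GRCm38.p6, each from 250 bases before to 50 bases after a start site, were matched by symbol for 8 of 8 members. The CHR letters TTTGAA, searched on both strands (TTCAAA on the other), were found in the windows of 7 members and not in the window of Cit, whose RefSeq start lies 378 bases from its GENCODE start. Of all 32851 windows of the same length, 17.9% held them. The letters of the NF-Y box, CCAAT or ATTGG on the other strand, were found in 5 members, namely Ect2, Racgap1, Kif23, Prc1 and Plk1, and in 37.4% of all windows. Both motifs stood in the windows of those 5 members and in 6.95% of all windows. The CHR variant TTCGAA was in no member and in 1.56% of windows, and the E2F spellings TTCCCGCC, TTTCCCGC and TTTGGCGC were in no member and in 2.19%, 1.07% and 0.514% of windows. The spellings TTCCCGCC and TTTCCCGC overlap each other. Each line below gives 30 bases around a match, read 5′ to 3′ on the gene's own strand, with the CHR and NF-Y letters in capitals.
Ect2, chr3:27153975-27154004, minus strand, match at -114: ccgtttaccggaTTTGAAacacactcacaa
Ect2, chr3:27153829-27153858, minus strand, match at 40: gagagagcgactggattttTTTGAAtcgga
Racgap1, chr15:99651634-99651663, minus strand, match at 6: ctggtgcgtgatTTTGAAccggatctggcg
Kif23, chr9:61946780-61946809, minus strand, match at 3: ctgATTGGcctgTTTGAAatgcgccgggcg
Prc1, chr7:80294434-80294463, plus strand, match at -5: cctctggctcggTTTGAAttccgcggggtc
Anln, chr9:22389161-22389190, minus strand, matches at 22 and 29: tgaaaTTCAAAtTTTGAAcggccgtggtag
Cep55, chr19:38054996-38055025, plus strand, match at 25: acagccgcgggaTTCAAActcccggaagcg
Plk1, chr7:122159453-122159482, plus strand, match at 31: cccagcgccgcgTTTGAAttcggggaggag

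The positions count from the RefSeq start site as base 1, and negative positions lie before it. Ect2, Prc1 and Cep55 each have 2 RefSeq windows, and the one whose start lies nearest to the GENCODE start was used. In these windows, every match of the 6 members other than Ect2 lay between -5 and 31, and Ect2 had one at -114 beside one at 40. In the second windows the matches lay at -138 and 16 for Ect2, -30 for Prc1 and -33 for Cep55. Anln alone had 2 copies side by side in opposite orientation, and Ect2 alone had 3 NF-Y boxes, at -96, -55 and 2. A match is a spelling in these windows and was not tested as a binding site.

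**Figure D1:**
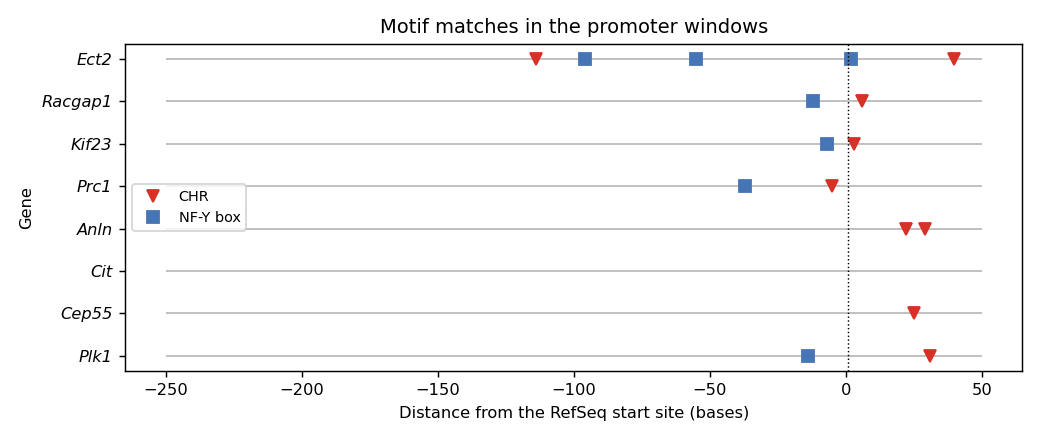
Positions of the CHR and NF-Y box letters in the RefSeq promoter windows of the 8 genes, with the distance from the start site in bases on the x axis and 1 line per gene on the y axis. Red triangles mark CHR and blue squares NF-Y boxes. Most CHR matches sit near the start, Ect2 also has one at -114, and the line of Cit is empty.

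The genes lie on 6 chromosomes of GRCm38, the assembly behind the name mm10 in the submitters' notes, by the GENCODE annotation: Ect2 at chr3:27097222-27153878, Racgap1 at chr15:99620496-99651656, Kif23 at chr9:61915905-61946774 and Anln at chr9:22332012-22389188, all on the minus strand. Prc1 at chr7:80294450-80316259, Plk1 at chr7:122159439-122169873, Cit at chr5:115845278-116008947 and Cep55 at chr19:38055011-38074423 lie on the plus strand. Exon bases of Prc1 overlap Rccd1 and those of Plk1 overlap Gm44985, in both cases on the opposite strand. Whether the counting used strand is not stated, so reads of those pairs cannot be told apart where they overlap.

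Totals per cell ran from 2545036 to 38465225 counts. Levels are counts per 1000000 counts of the cell (CPM) or, for a group, of the summed cells. CPM values are not corrected for gene length, so they are compared between cells and not between genes. The labels describe every cell as a Tnnt2-positive cardiomyocyte. By fixed marker lists, cardiomyocyte markers had the highest sum in 10 of 10 positive and 10 of 11 negative cells at E14.5, and in 5 of 6 positive but 0 of 6 negative cells at P5. Endothelial markers led in 5 P5 negative cells, and 2 of those, L1N3 and L2N10, also had 409 and 983 CPM of red blood cell markers. Fibroblast and mural markers led in the P5 negative cell L2N12 and the E14.5 negative cell N10. The P5 positive cell L2P12 had 7.24 CPM of Tnnt2, 114 CPM in its 11 cardiomyocyte markers, and 4629 CPM in its endothelial markers, with 7 of 7 of these at 10 CPM or more. In the other 5 P5 positive cells the endothelial sum was at most 8.86 CPM. The P5 negative group therefore sets other cell types beside the P5 positive cells, and L2P12 adds an endothelial-led cell to the age comparison, whose member values below are also given without it. Another P5 positive cell, L2P10, had 119 CPM in a list of 43 G2/M genes that holds no member, while the other 5 had 15348 to 21227 CPM. Its Tnnt2 was 4899 CPM and its Gmnn, the mouse geminin gene, 1.35 CPM.

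Ect2 was at 36.5 CPM or more in every E14.5 positive cell and at 24.2 CPM or less in all but 1 P5 positive cell. In the 10 E14.5 positive cells it stood at 348 CPM in G1, 36.5 in G2, 1332 in G5, 651 in G6, 665 in G8, 56.4 in G10, 535 in G25, 466 in G27, 269 in G28 and 585 in G29. In the 6 P5 positive cells it stood at 0 CPM in L1P5, 19.2 in L2P3, 219 in L2P7, 24.2 in L2P8, 0.0796 in L2P10 and 5.73 in L2P12. The ranges overlapped through L2P7 alone, since the other 5 P5 positive cells lay below the lowest E14.5 positive cell. The summed level was 482 CPM (478.7 to 485.5, exact 95% Poisson interval) at E14.5 and 41.4 CPM (40.0 to 42.7) at P5. The age ratio, here always the log2 of the summed P5 level divided by the summed E14.5 level in positive cells, was -3.54 (-3.59 to -3.50), with 71.9% of the P5 counts in L2P7. It was -5.16 without L2P7 and -3.19 without L2P12. Amplified reads carry no molecular identifiers here, so these intervals, and those of ratios below, cover counting error only.

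For reference, genes were compared between groups where the higher group reached 10 CPM, which left 7809 genes for the age comparison. Their median log2 ratio was -0.07, and 9.03% of them had a lower ratio than Ect2. At least 2-fold lower at P5 were 32.5% of the genes and at least 2-fold higher 32.2%. Of the 7 members that reached 10 CPM, 2 were at least 2-fold lower, Ect2 and Anln, and 2 at least 2-fold higher, Racgap1 and Plk1. Those shares are close to the shares of all genes, so the count itself is not particular to the members. Without L2P12, 1 member was lower, Ect2, and Racgap1 (1.04) and Plk1 (1.49) were higher, while 40.3% of 7344 genes were at least 2-fold lower and 26.8% higher. The median over the 8 members was 0.01, with Cit, which did not reach 10 CPM, included.

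The centralspindlin subunits did not follow Ect2 down. Racgap1, the GTPase-activating subunit, ranged from 14.05 to 124 CPM with a median of 74.7 CPM in E14.5 positive cells. In P5 positive cells it stood at 339 CPM in L1P5, 113 in L2P3, 123 in L2P7, 298 in L2P8, 3.58 in L2P10 and 237 in L2P12. Of the 6 P5 positive cells, 3 lay above the highest E14.5 positive cell and 1, L2P10, below the lowest. The summed levels were 85.1 CPM at E14.5 and 190 CPM at P5, an age ratio of 1.16 (1.13 to 1.19). Leaving out L2P12 gave 1.04, and leaving out L2P8, which took the value below 2-fold, gave 0.77. Summed Racgap1 was 50.1 CPM in E14.5 positive cells with title numbers 1 to 10 and 106 CPM in those numbered 21 to 30. The P5 level was above both, but less than 2-fold above the second.

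Kif23, the kinesin subunit, ranged from 19.0 to 529 CPM with a median of 181 CPM at E14.5. At P5 it stood at 62.9 CPM in L1P5, 184 in L2P3, 263 in L2P7, 329 in L2P8, 0.398 in L2P10 and 333 in L2P12. The P5 values other than L2P10 lay inside the E14.5 range. The summed levels were 242 and 245 CPM, and the age ratio of 0.02 (-0.01 to 0.04) ran from -0.20 to 0.23 when 1 cell was left out and was -0.16 without L2P12.

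Prc1, the microtubule bundler, ranged from 25.1 to 660 CPM with a median of 208 CPM at E14.5. At P5 it stood at 29.5 CPM in L1P5, 189 in L2P3, 302 in L2P7, 212 in L2P8, 0.477 in L2P10 and 431 in L2P12. As with Kif23, only L2P10 fell outside the E14.5 range. The age ratio was -0.48 (-0.50 to -0.45) from 334 and 240 CPM, and -0.90 without L2P12, which held 43.9% of the P5 counts. Summed Prc1 was 123 CPM in E14.5 positive cells with title numbers 1 to 10 and 458 CPM in those numbered 21 to 30. The P5 level lay between these, so the direction of the ratio depends on which E14.5 cells are taken.

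Plk1, the kinase that licenses the Ect2 and Racgap1 contact, was the member with the highest ratio among the 7 compared. It ranged from 0 to 75.8 CPM with a median of 23.8 CPM at E14.5. At P5 it stood at 4.72 CPM in L1P5, 138 in L2P3, 123 in L2P7, 89.2 in L2P8, 0.875 in L2P10 and 165 in L2P12. Of the 6 P5 positive cells, 4 lay above every E14.5 positive cell. The summed levels were 30.9 and 106 CPM, an age ratio of 1.78 (1.73 to 1.83) that ran from 1.49 without L2P12 to 2.12 without G29.

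Anln, the ring scaffold, was the other member at least 2-fold lower at P5. It ranged from 329 to 1764 CPM with a median of 636 CPM at E14.5. At P5 it stood at 1976 CPM in L1P5, 508 in L2P3, 455 in L2P7, 252 in L2P8, 0 in L2P10 and 82.4 in L2P12. The cell with no Ect2 read, L1P5, had the highest Anln of all 33 cells, in the library with the lowest total, 2545036 counts. The summed levels were 699 and 294 CPM, an age ratio of -1.25 (-1.27 to -1.23). Without L2P12 it was -0.95, no longer 2-fold.

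Of the midbody members, Cep55 was at like summed levels at both ages. It ranged from 0.104 to 527 CPM with a median of 84.5 CPM at E14.5. At P5 it stood at 26.3 CPM in L1P5, 185 in L2P3, 49.4 in L2P7, 195 in L2P8, 0 in L2P10 and 171 in L2P12. The lowest E14.5 positive cell was G5, which had the highest Ect2. The summed levels of 136 and 137 CPM gave an age ratio of 0.01 (-0.02 to 0.04), between -0.27 and 0.43 when 1 cell was left out and -0.11 without L2P12. Cit reached 10 CPM in none of the 33 cells. It held 60 counts over the E14.5 positive and 102 over the P5 positive cells, at 0.380 and 1.11 CPM, an age ratio of 1.54 (1.07 to 2.03) that was 0.86 without L2P8, 1.95 without L2P12 and 2.32 without G1.

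**Figure D2:**
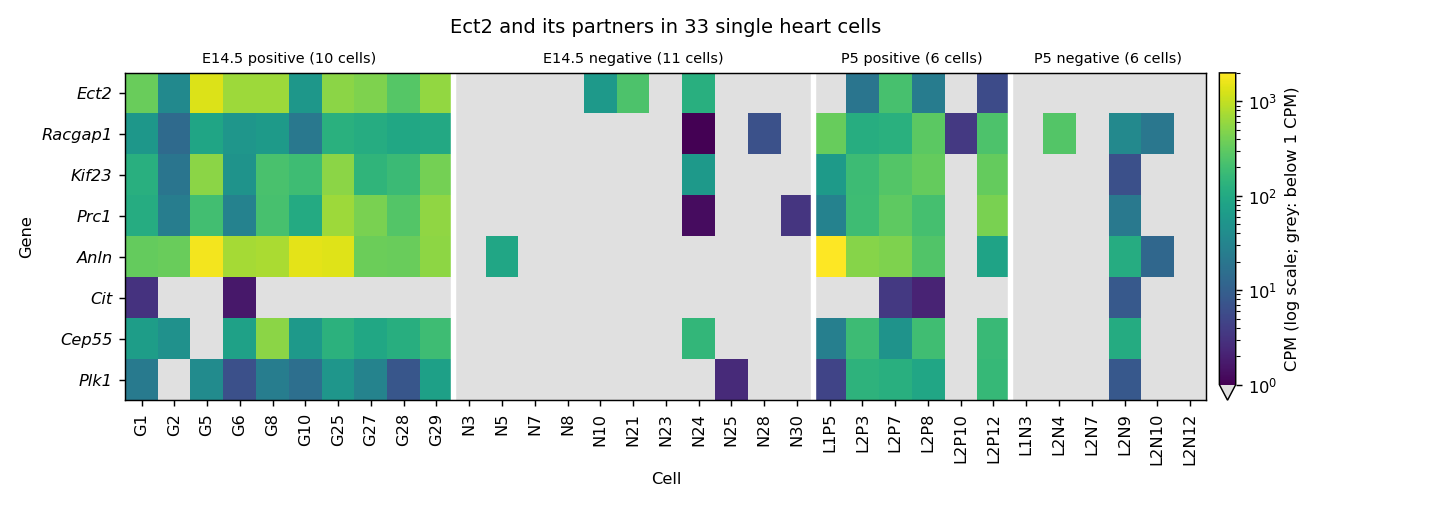
Heat map of the 8 genes (rows) in the 33 cells (columns, by group), coloured by CPM on a log scale, with values below 1 CPM, 0 included, in grey. The Ect2 row is filled in all 10 E14.5 positive cells and patchy in the 6 P5 positive cells, whereas the rows from Racgap1 to Anln, Cep55 and Plk1 stay filled in P5 positive cells other than L2P10.

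Every member was also set against the counts of the 43 G2/M genes, as a reference for cycling. Positive cells had 14464 CPM of that list at E14.5 and 13688 CPM at P5, a difference of -0.08 on the log2 scale. Ect2 had 33.3 counts per 1000 G2/M counts at E14.5 and 3.02 at P5, an age ratio of -3.46 (-3.51 to -3.42). It was -5.06 without L2P7 and -3.05 without L2P12. Per cell, Ect2 had 7.51 to 115 counts per 1000 G2/M counts at E14.5. At P5 it had 0 in L1P5, 1.18 in L2P3, 14.3 in L2P7, 1.55 in L2P8, 0.666 in L2P10 and 0.369 in L2P12, so again only L2P7 reached the E14.5 range. On the same scale the age ratios were 1.24 for Racgap1, 0.09 for Kif23, -0.40 for Prc1, -1.17 for Anln, 0.09 for Cep55 and 1.86 for Plk1. Without L2P12, Anln moved to -0.80, inside 2-fold, Prc1 to -0.76, Racgap1 to 1.18, Kif23 to -0.02, Cep55 to 0.03 and Plk1 to 1.63.

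**Figure D3:**
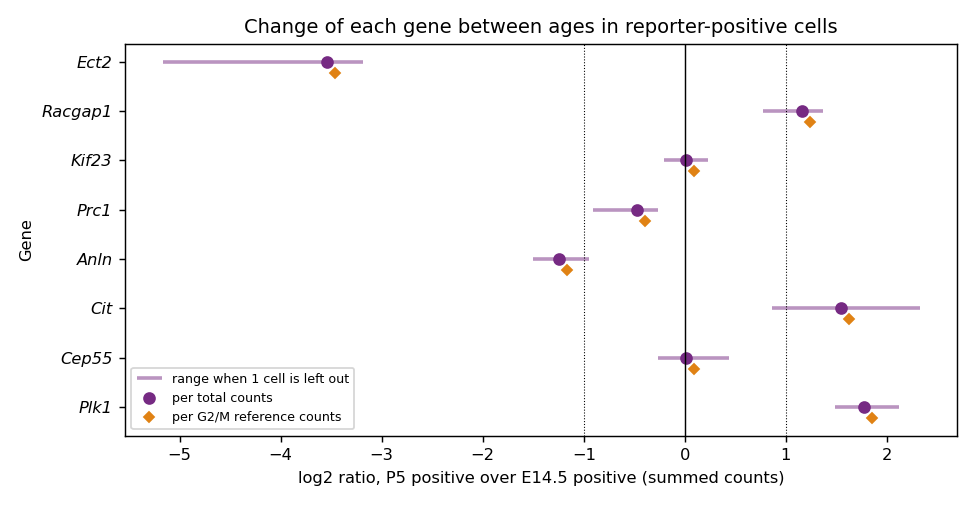
The age ratio in positive cells (log2, x axis) for each gene (y axis), from counts summed over cells. Circles are per total counts, diamonds per counts of the G2/M genes, bars span the values when 1 cell is left out, and dotted lines mark 2-fold. Ect2 sits at -3.54 and -3.46, apart from the other 7 genes, and its bar reaches -5.16.

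The make-up of the members' summed counts shifted accordingly. Ect2 gave 23.99% of these counts in E14.5 positive and 3.30% in P5 positive cells. Per cell its share ran from 2.98% in G10 to 40.8% in G6, with a median of 25.3%, at E14.5, and from 0 to 14.2% with a median of 1.45% at P5. Racgap1 gave 4.23% at E14.5 and 15.1% at P5, and Plk1 1.54% and 8.45%. Kif23 gave 12.1% and 19.5%, Prc1 16.6% and 19.2%, Anln 34.8% and 23.4%, and Cep55 6.76% and 10.9%. Without L2P12 the P5 share was 4.41% for Ect2, 14.6% for Racgap1, 18.1% for Kif23, 14.9% for Prc1, 30.2% for Anln, 10.5% for Cep55 and 7.25% for Plk1. Shares of 1 sum are tied to each other, so a lower share of Ect2 raises the others. They also use counts that are not divided by gene length and show changes within a gene only.

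**Figure D4:**
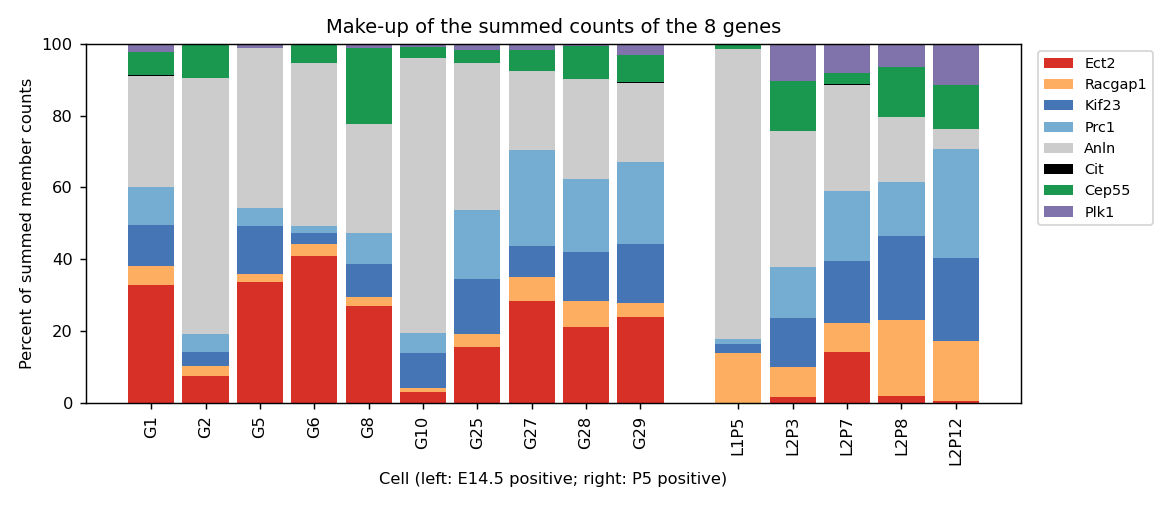
Share of each gene in the summed counts of the 8 genes (y axis, percent) in each mAG-hGem positive cell (x axis, E14.5 left, P5 right), without L2P10, whose 8 genes summed to 5.41 CPM. The Ect2 share at the base of the bars runs from 2.98% to 40.8% at E14.5 and is at most 14.2% at P5.

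Within E14.5 the comparison of positive with negative cells asked which members follow the reporter. All 7 members that reached 10 CPM were at least 2-fold higher in positive cells, against 16.2% of 7311 genes, whose median log2 ratio was -0.14. The log2 ratio was 3.76 (3.73 to 3.80) for Ect2, which had 35.6 CPM over the negative cells. It was 5.91 for Racgap1, 5.11 for Kif23, 9.57 for Prc1, 7.13 for Anln, 2.90 for Cep55 and 6.63 for Plk1. Single negative cells decided several of these: the ratio was 13.35 for Kif23 and 12.51 for Cep55 without N24, 14.39 for Anln without N5, 10.91 for Prc1 without N30, 9.80 for Plk1 without N25, 8.10 for Racgap1 without N28 and 4.47 for Ect2 without N21. For Racgap1, Prc1 and Anln the ranges did not overlap, and all 10 positive cells lay above every negative cell. The share of all genes without such overlap was not counted, so this is not read as particular to them. Cit had no count in the 11 negative cells, whose summed total puts 3 counts at 0.0153 CPM, so it was at least 24.7-fold higher, a log2 bound of 4.63 that was 3.85 without G1, which held 45.0% of the 60 counts.

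The titles number the E14.5 cells from 1 to 10 and from 21 to 30, and the labels do not say what these ranges are. Positive cells had 8400585 to 12807230 counts in the first range and 16764314 to 38465225 in the second. The Ect2 ratio was 4.69 in the first (6 against 5 cells) and 3.45 in the second (4 against 6 cells), and 7 of 7 members were at least 2-fold higher in both. Among positive cells, Racgap1 was at most 87.4 CPM in the first range and at least 91.6 CPM in the second, and Prc1 at most 216 and at least 259 CPM. Neither overlapped, and the share of all genes without overlap was not counted. Ect2 was at 529 CPM in the first and 454 CPM in the second, with overlapping cells.

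Ect2 was the member most often present in E14.5 negative cells. It stood at 239 CPM in N21, 121 in N24 and 61.5 in N10, and at or below 0.178 CPM in the other 8. In N21 no other member had a read, and in N10 the other 7 summed to under 1 CPM. N21 had 0.0804 CPM of Gmnn and 515 CPM in the G2/M list, and N10, the cell led by fibroblast and mural markers, had 0.0534 and 21.7 CPM. N24 had Kif23 at 58.7 CPM and Cep55 at 152 CPM beside Ect2, with Racgap1 at 1.03, Prc1 at 1.29 and Anln, Cit and Plk1 at 0. That cell also had 177 CPM of Gmnn and the highest sum of 15 S phase genes of all cells, 15832 CPM. The reverse also occurred: N5 had Anln at 90.7 CPM and no other member.

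At P5, Ect2 had no read in any of the 6 negative cells, a total of 82952801 counts in which 3 counts correspond to 0.0362 CPM. Against that floor over the group, the P5 positive level was at least 1143-fold higher, and L2P7 carried much of it, since without it the log2 bound moved from 10.16 to 8.54. Kif23 had a log2 ratio of 7.92, Plk1 6.63, Prc1 6.39, Anln 4.13, Cep55 3.24 and Racgap1 2.95, so 7 of 7 members compared were at least 2-fold higher, against 30.4% of 8304 genes with a median of -0.38. Cit was at 1.11 and 1.10 CPM, with all 91 counts of the negative group in L2N9. L2N9, led by endothelial markers, held Anln at 110 CPM, Cep55 at 108, Racgap1 at 35.8, Prc1 at 21.4 and Gmnn at 181 CPM without an Ect2 read. Leaving it out moved Prc1 to 13.08, Plk1 to 11.31, Cep55 to 10.94, Kif23 to 10.30 and Anln to 6.84. Racgap1 was at 261 CPM in L2N4 and 20.7 in L2N10, and without L2N4 its ratio was 4.41. Leaving out L2N7, the deepest negative cell and one with no member above 0.458 CPM, gave 5.78 for Prc1, 3.52 for Anln, 2.64 for Cep55, 2.35 for Racgap1 and 6.02 for Plk1. The parts of cell type and of the reporter in these ratios cannot be told apart.

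Whether the genes are on in the same cells was read from a level of 10 CPM. Ect2 reached it in 16 of 33 cells, Kif23, Prc1 and Cep55 in 16, Racgap1 and Anln in 18 and Plk1 in 11. Ect2 and Kif23 were both on or both off in 29 cells, Ect2 and Prc1 or Cep55 in 27, Ect2 and Plk1 in 26, and Ect2 and Racgap1 or Anln in 25. Across all 14861 other genes the median was 17 cells, and 172 genes, members included, reached 25. Ect2 was off in 17 cells, so a gene that is never on, such as Cit, also scores 17. No level filter was applied to these genes, so that median is a low reference. Agreement over the 33 cells also includes the differences between the sorted groups. Partners matched each other in up to 31 cells, which was the value for Racgap1 with Prc1, Racgap1 with Anln, Kif23 with Prc1, Kif23 with Cep55, Prc1 with Anln and Prc1 with Cep55. All 7 members other than Cit were on together in 6 of 10 E14.5 positive cells (60%) and in 3 of 6 P5 positive cells (50%), and in no negative cell. These shares describe these cells only. The 3 P5 cells were L2P3, L2P7 and L2P8. In L2P12 every member but Ect2 and Cit was on, and in L1P5 every member but Ect2, Cit and Plk1. L2P10 had none on. In E14.5 positive cells the members off besides Cit were Plk1 in G2, G6 and G28 and Cep55 in G5.

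The genes most like Ect2 by this measure were Cdca2, which shared its state in 30 cells, and Sgol2, Dlgap5, Top2a and Ska3, in 29 each. These act in chromosome segregation: Cdca2 brings a phosphatase to anaphase chromatin, Sgol2 protects centromere cohesion, Dlgap5 and Ska3 work at spindle and kinetochore, and Top2a untangles DNA. Their summed levels did not share the Ect2 difference between the ages in size. In positive cells Top2a was at 745 CPM at E14.5 and 606 CPM at P5, Sgol2 at 205 and 130, Cdca2 at 118 and 152, Dlgap5 at 203 and 103, and Ska3 at 71.6 and 57.5 CPM. Without L2P12 the P5 levels were 629 CPM for Top2a, 118 for Sgol2, 149 for Cdca2, 133 for Dlgap5 and 35.4 for Ska3. These are descriptions of the same libraries, and the differences between genes were not tested.

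Among E14.5 positive cells the levels went together for some partners only, and how closely depended on which cells were kept. Over the 10 cells, on log2(CPM + 1), Pearson's r of Ect2 was 0.85 with Racgap1, 0.69 with Plk1, 0.61 with Kif23, 0.50 with Prc1, 0.25 with Anln, 0.20 with Cit and -0.14 with Cep55. Spearman's rank correlation was 0.36, 0.54, 0.56, 0.30, 0.54, 0.01 and 0.28 in that order, so the high r with Racgap1 was not matched by ranks. The median r over the 7 partners was 0.50, beside a median of -0.12 over 5247 genes, of which 4.02% had at least 0.50. The median was 0.17 without G2, a cell with low values of most members, 0.74 without G6, and 0.24 without G5 and G2, the 2 cells farthest from the median of Ect2 in CPM. It was -0.012 without G2 and G10, the 2 farthest on the log2 scale and the 2 with the lowest Ect2. Without G10 alone it was 0.64. Leaving out the lowest cells also narrows the range of Ect2, so this check cannot say which cells carry the relation. The cells share the sort, the amplification and a range of depths. Ect2 had r = 0.69 (Spearman 0.38) with the G2/M sum, and Racgap1 and Prc1 had 0.90 and 0.93 with it. With the total count of the cell, Ect2 had 0.24, Racgap1 0.65 and Prc1 0.75. With the number of genes detected, Ect2 had -0.66, Racgap1 -0.66 and Kif23 -0.62. The part of depth and cycle position in the correlations was not tested.

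Several pairs of partners also had a high r. Only Kif23 with Plk1 and, narrowly, Kif23 with Prc1 exceeded the 0.85 of Ect2 with Racgap1. Kif23 and Plk1 had r = 0.91, Kif23 and Prc1 0.85, Prc1 and Plk1 0.83, Racgap1 and Prc1 0.80 (Spearman 0.96), and Racgap1 and Plk1 0.75. Anln and Cep55 had the lowest of the 28 pairs, -0.41. The median over these pairs, which include those of Ect2, was 0.19, below the 0.50 of Ect2 with its 7 partners. In the 6 P5 positive cells the median r of Ect2 with its partners was 0.67 beside an all-gene median of 0.28 over 4227 genes, from 0.33 with Racgap1 to 0.83 with Cit. Cit counts in the partner median, but it was at most 3.51 CPM in these cells and was not among the 4227 genes. By ranks Ect2 had -0.14 with Racgap1, -0.03 with Anln, 0.94 with Cit and 0.43 to 0.60 with the others, and L2P10 had at most 3.58 CPM of any member. In the 11 E14.5 negative cells the median was 0.00, and most values were 0. The 5 genes with the highest r with Ect2 in E14.5 positive cells were Ran, 0.88, Rpl36a, 0.87, Ssr1, 0.87, Racgap1, 0.85, and the gene listed as 2700094K13Rik, 0.85.

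**Figure D5:**
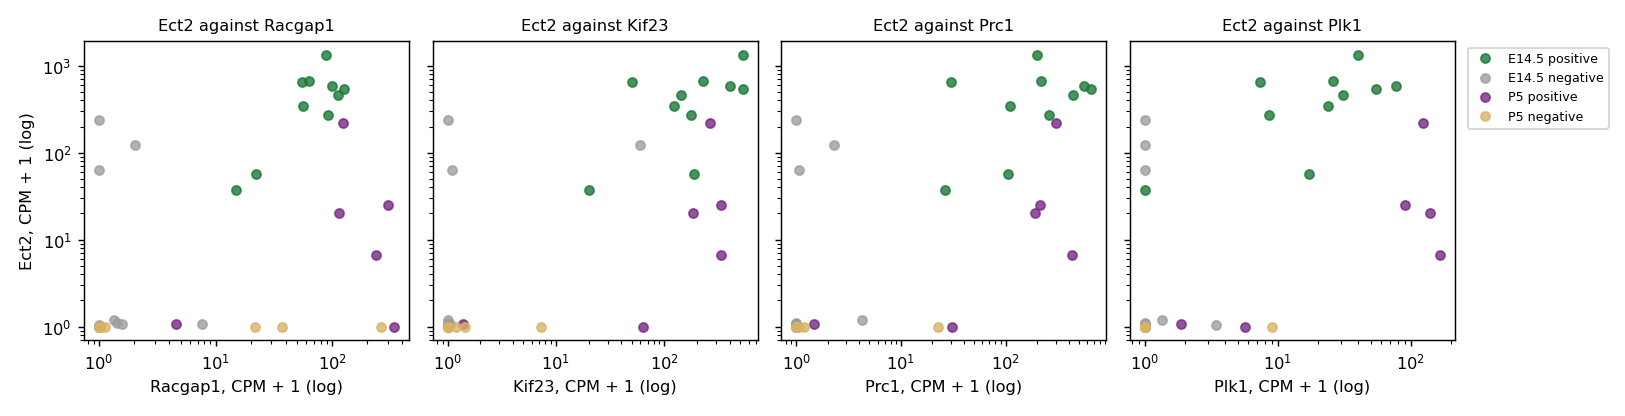
Ect2 (y axis) against Racgap1, Kif23, Prc1 and Plk1 (x axes), each as CPM + 1 on a log scale, with 1 point per cell coloured by group. Most P5 positive cells lie to the right with the E14.5 positive cells on the partner's axis but below them on the Ect2 axis, and 3 E14.5 negative cells lie high on the Ect2 axis, 2 of them with no partner at 10 CPM.

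The wider machinery was read from 48 further cytokinesis genes, all in the table. In the age comparison 42 reached 10 CPM, of which 11 were at least 2-fold higher and 8 at least 2-fold lower at P5, with a median log2 ratio of 0.15. Over all genes these shares were 32.2% and 32.5%, so neither count is above the background. Without L2P12, 9 were higher and 17 lower with a median of -0.53, beside 26.8% and 40.3% of all genes. Of 14 genes of RhoA and the contractile ring, 3 were higher and 2 lower, with a median of -0.01. Without L2P12, 2 were higher and 9 lower, with a median of -1.78. Rock1, a kinase that RhoA activates, had the lowest ratio among those that reached 50 CPM in 1 of the groups, -2.42, from 310 to 57.7 CPM, and -3.13 without L2P7. Below that level Rhob, a small GTPase named after its value was seen, had -4.98, from 45.7 to 1.44 CPM, with 74.4% of its E14.5 counts in G27, and -3.42 without that cell and -6.44 without L2P7. Actb, cytoplasmic actin, had the highest at 2.90, but L2P12 held 91.5% of its P5 counts, and without that cell it was -0.26. RhoA itself (Rhoa) was at 116 and 155 CPM, a ratio of 0.42 that was -0.03 without L2P12.

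Of 5 other exchange factors and GTPase-activating proteins 2 were higher and 1 lower. Net1, another exchange factor for RhoA, had a lower ratio than Ect2: -4.55, from 117 to 5.00 CPM, -5.18 without L2P12 and -4.11 without G27. Its lowest E14.5 positive cell, at 27.2 CPM, lay above the highest P5 positive cell, at 10.5 CPM. How many of all genes show this was not counted. Arhgef2, a microtubule-bound exchange factor for RhoA, was at 25.8 and 61.2 CPM, a ratio of 1.25 that was 0.50 without L2P8 and 1.88 without G25.

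Of 8 genes of the chromosomal passenger complex and other central spindle motors 3 were higher, close to the 32.2% of all genes, and none lower. Without L2P12, 4 were higher and 2 lower. Aurkb, its kinase, was at 60.4 and 128 CPM, a ratio of 1.08 that was 0.32 without L2P3, and Kif20b, a kinesin of the late midbody, at 281 and 168 CPM, a ratio of -0.74. Kif20a, a kinesin of the central spindle and 1 of the 3, had a ratio of 1.18 that was -2.71 without L2P8, which held 95.2% of its P5 counts. All 7 of this group that were compared within E14.5 were at least 2-fold higher in positive than in negative cells, with a median log2 ratio of 3.60, beside 16.2% of all genes. Of 15 ESCRT and abscission genes 1 was, with a median of -0.01. With age, 3 of 15 ESCRT and abscission genes were higher and 5 lower, and 1 and 4 without L2P12. Chmp2b, an ESCRT-III subunit, was at 205 and 23.1 CPM, a ratio of -3.15 that was -3.83 without L2P10, and Chmp1a, another, at 20.6 and 57.1 CPM, a ratio of 1.47 that was 2.15 without G27.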

How the data were processed

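The authors deposited raw read counts per gene for 33 cells, and per the labels' protocols the libraries came from a TruSeq kit after amplification. The submitters' processing notes name CASAVA 1.8.2, STAR 2.4.0j, HTSeq 0.6.1p1 and mm10. Annotation and strand setting are not given in the sources used here. Group levels are the added counts of all cells per 1000000 added total counts, with exact Poisson intervals. Ratios of these sums have exact Clopper-Pearson intervals at 95%, and a group without a count was set to a floor of 3 counts. Correlations used log2(CPM + 1). Python 3.11.15, numpy 2.4.6, pandas 2.3.3 and scipy 1.17.1 were used, with scaling factors from edgeR 4.0.16 and DESeq2 1.42.0 as alternatives. The calculation was tested on simulated data.

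The members and all gene lists were chosen with earlier results of these data known. Other cytokinesis genes are named where they had the highest or the lowest age ratio of their role among those at 50 CPM or more in the higher group, with Rhoa, Rhob and Kif20a added after their values were seen. For likeness to Ect2, the 5 first genes of each measure are named. A spreadsheet had turned 22 row names into calendar dates, so septins were not analysed here. Rgs5, Hba-a1, Hbb-bs, Hbb-bt, Ptprc and C1qa were not matched. Alternatives were other scalings, equal weights for cells, thinning to 8671357 counts (6 cells left out), other levels and folds, and each cell left out. No 2 cells were alike enough to be 1 library, with a highest Pearson r of 0.867.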

Additional observations from a re-analysis of the deposited data

Results flagged for a closer look

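Single cells that stood apart from the rest of their group by Dixon's limit at 95% are listed here. Of 23 combinations of a gene and a group of 6 or 10 cells, 12 exceeded the limit, where chance gives about 1 in 20 for values without skew. In E14.5 positive cells these were Ect2 in G5 (1332 CPM, next cell 665), Cep55 in G8 (527 CPM, next 188) and Cit in G1 (3.05 CPM, next 1.61). In P5 positive cells they were Ect2 in L2P7 (219 CPM, next 24.2) and Anln in L1P5 (1976 CPM, next 508). In P5 negative cells Racgap1 stood apart in L2N4 (261 CPM, next 35.8). The same group had 6 genes apart in the one cell L2N9, which is led by endothelial markers: Anln (110 CPM), Cep55 (108 CPM), Prc1 (21.4 CPM), Cit (8.26 CPM), Plk1 (8.08 CPM) and Kif23 (6.35 CPM). For Cit and Plk1 the other cells of that group had 0 CPM, so any read would have exceeded the limit.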

How the results depend on the processing

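Each group is 1 sample of 6 to 11 cells with no animal named. The spread between cells is far wider than the counting intervals, and the part of depth in the values was not tested. A ratio of sums is said to have moved when it left its counting interval, a count when it changed by over 1.5 times, and a correlation when it changed by 0.1 or more. By these limits 157 values did not move, 168 did, and 1 correlation was counted as reversed. Values near 0 that changed sign were not counted as reversed. For example, the members' median age ratio of 0.01 was -0.30 with equal weights and was counted as moved. The Ect2 ratios kept their direction under all alternatives run for them, while the called age ratio of Actb, 2.90, was -0.26 without L2P12 and that of Kif20a, 1.18, was -2.71 without L2P8. The cause was not tested for any of the moves below, other than those that leave cells out by construction. The order used below is TMM factors, DESeq2 size factors, equal weights for cells, thinning.

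The Ect2 age ratio of -3.54 was -3.39, -3.16, -3.47 and -3.33, -3.19 in cardiomyocyte-led cells, and -5.16 to -3.19 with 1 cell left out. Per G2/M counts it was -3.84 with equal weights, -3.26 after thinning, -3.05 in cardiomyocyte-led cells and -5.06 to -3.05 with 1 cell left out. The median over the 8 members, 0.01, was 0.17, 0.40, -0.30 and -0.24, -0.14 in cardiomyocyte-led cells, and -0.24 to 0.22 with 1 cell left out, while DESeq2 factors moved the median of all genes from -0.07 to 0.39 and TMM factors to 0.12. The 2 members at least 2-fold higher were 1 after thinning, and 1 to 2 with 1 cell left out. The 2 members at least 2-fold lower were 1 with DESeq2 factors, equal weights or cardiomyocyte-led cells, and 1 to 2 with 1 cell left out.

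For E14.5 positive against negative cells, Ect2 (3.76) was 3.80, 3.64, 3.69 and 3.58, 3.88 in cardiomyocyte-led cells, 4.69 and 3.45 in the title ranges (added after seeing the data), and 3.48 to 4.47 with 1 cell left out. The members' median (5.51) was 5.55, 5.39, 5.97 and 5.76, 6.26 with 0.5 count added, 5.36 in cardiomyocyte-led cells, 8.57 and 5.27 in the title ranges, and 5.30 to 6.70 with 1 cell left out. For P5 positive against negative cells, the Ect2 bound (10.16) was 10.30, 10.19, 10.27 and 9.29, 12.74 with 0.5 count added, and 8.54 to 10.51 with 1 cell left out. The median (5.26) was 5.40, 5.28, 5.24 and 4.48, 5.25 with 0.5 count added, and 4.65 to 10.13 with 1 cell left out. The 7 members higher stayed 7 in both with 1 cell left out, and were 8 at E14.5 without a filter on low values. Without that filter 3 members were higher at P5 than at E14.5.

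The median r of Ect2 with its partners at E14.5 (0.50) was 0.36 by Spearman, 0.17 after thinning, 0.24 and -0.012 without the 2 cells farthest in Ect2 by CPM and by log2 (both added after seeing the data), and 0.17 to 0.74 with 1 cell left out. Over the 28 pairs (0.19) it was 0.38 by Spearman, 0.049 after thinning, 0.32 in the first title range and 0.077 without the 2 cells farthest by log2 (both added), and 0.086 to 0.53 with 1 cell left out. In E14.5 negative cells (0.00) it was 0.29 by Spearman and -0.18 to 0.19 with 1 cell left out. In P5 positive cells (0.67) it was 0.54 by Spearman, 0.55 with a pseudocount of 10, and 0.64 to 0.74 with 1 cell left out. All 8 members reached 1 CPM together in 2 cells of each positive group, against 0 at 10 CPM, and the 7 without Cit (added) reached 1 CPM in 8 E14.5 and 4 P5 positive cells and 25 CPM in 3 E14.5 and 1 P5 positive cells.

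A filter cannot move a median over all 8 members, and cardiomyocyte-led cells cannot be compared at P5, where no negative cell is one. No paired analysis was possible because no result comes from a test and the replicate numbers only name cells.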
